A study of Rattus norvegicus with 18 samples.

Results

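The comparison described here sets messenger RNA levels after 4 h of phenylephrine (PE) against those at 0 h in vehicle-treated neonatal rat ventricular myocytes (NRVM). It is made over the 10434 genes, of 17312 in the deposited table, that had an accepted estimate and a value above 0 in both groups and a mean FPKM of 1 or more across all 6 groups. The rule sets no size of difference, but the demand for a value above 0 leaves out genes by level: 1815 genes had a value at 0 h and were listed at 0 at 4 h, and 134 the other way. Those with at least 5 FPKM in the other group, 43 and 20, were all microRNA hairpins. The 0 h group (3 libraries) was given vehicle for 24 h and no PE, and the 4 h group (3 libraries) was given vehicle for 24 h and then PE for 4 h. The NRVM came from hearts of Sprague-Dawley pups at day 2 after birth. They were plated in 10% serum and kept without serum, with an insulin, transferrin and selenium supplement as ITS is commonly composed, for 24 h before the pretreatment. The other 4 groups of the series, 3 libraries each, were vehicle with 48 h of PE and the REV-ERB agonist SR9009 with 0, 4 or 48 h of PE. They are used below only to set values side by side. A culture kept for 4 h without PE is not among the samples used here, so PE and the further 4 h in culture cannot be told apart. The labels do not say whether the 3 libraries of a group came from separate isolations or how many pups were pooled.

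FPKM is fragments per kilobase of transcript, scaled to the mapped fragments, a level per length that can be compared between genes. The authors combined the 3 libraries of each group into 1 FPKM per gene with a lower and an upper bound. No value per library was used here, so no standard deviation is given and no difference was tested. The number of reads behind each value is unknown, and so is the confidence level of the bounds. Differences are of log2(FPKM + 1), 4 h minus 0 h, and the range in parentheses after a difference is the widest that the bounds allow. Genes whose difference reaches 1 in size, with 0 outside that range, are counted as higher or as lower. Adding 1 makes the difference of genes near 1 FPKM smaller than the ratio of their values.

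PE is an agonist of α1-adrenergic receptors, which signal through Gq to phospholipase C, calcium and protein kinase C, and from there to ERK, calcineurin and RhoA. In cultured neonatal myocytes it is a standard stimulus for hypertrophy, the growth of the cell without division. The response begins with immediate early transcription factors and goes on to genes of the fetal heart, such as natriuretic peptides and α-actins, and to ribosome production. NRVM cultures also hold some fibroblasts and other non-muscle cells.

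Of the 10434 genes, 287 were higher at 4 h (2.75%) and 242 were lower (2.32%). Differences of at least 2 were seen in 42 of the higher and 15 of the lower genes. The difference of all genes had a median of -0.02, and 75.6% of genes lay within 0.5 of 0. The genes counted as higher had a median of 16.3 FPKM at 0 h and 48.0 at 4 h, and those counted as lower a median of 14.1 and 4.99. Nearest to the threshold were Irf7 (1.0007) just inside and Inhba (0.9983) just outside, and on the lower side Rxrg (-1.0007) inside and Irf1 (-0.9988) outside. With FPKM rescaled to equal sums the median of all genes moved to -0.20, and 198 genes were higher and 409 lower, so the higher genes were 32.6% of those counted, against 54.3% as deposited.

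**Figure D1:**
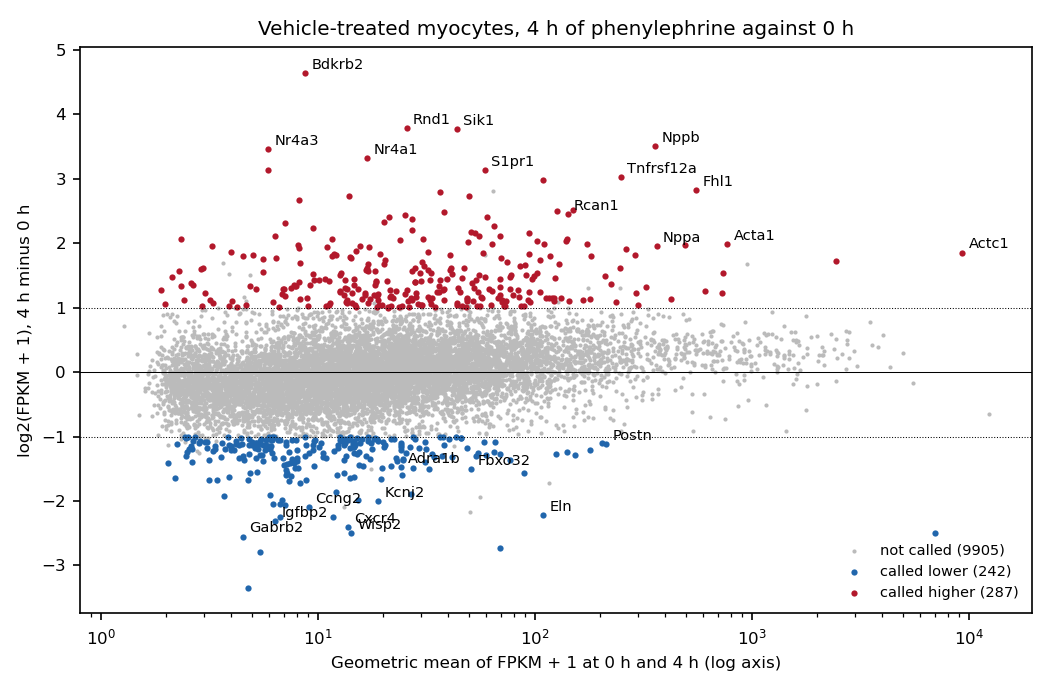
Each point is a gene, with the geometric mean of FPKM + 1 in both groups on a log axis against the difference of log2(FPKM + 1). Red marks the 287 higher genes, blue the 242 lower ones and grey the rest; Nppb, Fhl1, Acta1 and Actc1 are higher genes at high levels, and Bdkrb2 has the largest difference of the labelled genes (4.64).

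The cells matched their label by markers. The 11 measured cardiomyocyte markers summed to 16895 FPKM at 0 h and 23754 at 4 h, with a median difference of 0.37 and none past the threshold. Among them cardiac troponin T (Tnnt2) stood at 2652 FPKM at 0 h and 3331 at 4 h, and the ventricular light chain Myl2 at 2688 and 4596. Titin was not analysed here, and the α-myosin gene Myh6 carried no accepted estimate. Fibroblast markers (10 measured) summed to 1791 FPKM at 0 h and 1086 at 4 h, with 9 of 10 below 0 and a median of -0.67. Col3a1 had the lowest of these differences, with 737 FPKM at 0 h and 389 at 4 h. Smooth muscle and pericyte markers (10 measured) summed to 2196 and 2750 FPKM, but 6 of 10 lay below 0 with a median of -0.35. Acta2 and Cspg4 (20.7 to 75.5 FPKM, 1.82) were higher and Pdgfrb had the lowest difference (-0.96); with equal sums 1 was higher and 2 were lower. Endothelial markers (8 measured) summed to 69.0 and 58.7 FPKM, with 4 above and 4 below 0, a median of 0.07 and endoglin (Eng) at 48.8 and 37.1 FPKM, the lowest difference of the list. Emcn had its highest (0.33). Macrophage markers (8 measured) summed to 45.3 and 47.3 FPKM, with Adgre1 at 0.32 and Cd68 at -0.35. At the remaining ends of the marker lists were Mb (-0.19) at the low end of the cardiomyocyte markers, Pdgfra (0.02) at the high end of the fibroblast markers, Msln (-0.04) and Aldh1a2 (-0.80) of the epicardium, Hba1 (0.80, a locus that overlaps Hba2) and Ahsp (-0.51) of red cells, and Tubb3 (0.01) and S100b (-0.68) of nerve and Schwann cells. In such bulk samples, fewer cells of a type and less RNA per cell cannot be told apart. The 5S ribosomal RNA Rn5s stood at 16652 FPKM at 0 h against 2937 at 4 h, a difference of -2.50 that is in the lower count. The libraries were made with an mRNA kit, and whether these values follow 5S RNA levels in the cells was not tested. The status-accepted FPKM of all genes summed to 609018 at 0 h and 699056 at 4 h.

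The genes that define the hypertrophic state were the list with the highest median. Its members, like those of the other lists, were chosen with earlier results of these data known. Of 19 measured natriuretic peptide and hypertrophy genes, 12 were higher and 0 lower, and their median difference was 1.19 against -0.02 for all genes. Nppb encodes the B-type natriuretic peptide, a hormone of the stretched ventricle. It had 105 FPKM (90.3 to 120) at 0 h against 1208 FPKM (1046 to 1370) at 4 h, an 11.5-fold ratio and a difference of 3.51 (3.11 to 3.91). Its neighbour Nppa, the atrial peptide, stood at 184 FPKM (158 to 210) and 716 FPKM (615 to 816), a difference of 1.95 (1.54 to 2.36). The bounds of both groups are far apart for both genes. They lie 10875 bases from each other on chromosome 5 of rn6 (Nppb chr5:164796229-164797531, Nppa chr5:164808407-164809716).

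The α-actins of fetal and skeletal muscle followed. Acta1, skeletal α-actin (chr19:56674072-56677084), had 387 FPKM at 0 h against 1536 at 4 h, a difference of 1.99 (1.56 to 2.41). Actc1, cardiac α-actin, had the highest level of the list, 4918 FPKM (4080 to 5756) at 0 h against 17773 FPKM (13415 to 22131) at 4 h, a difference of 1.85 (1.22 to 2.44). Smooth muscle α-actin, Acta2, went from 286 to 629 FPKM, a difference of 1.13, which was 0.94 with equal sums and 0.80 with quantile normalization. Actb, the cytoplasmic β-actin, was not past the threshold, with 1935 and 1672 FPKM.

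Other members act at the sarcomere or in its signalling. Fhl1, a LIM-domain protein of the I-band (chrX:159112880-159172528), had 209 FPKM (180 to 238) at 0 h against 1478 FPKM (1256 to 1699) at 4 h, a difference of 2.82 (2.40 to 3.24). Csrp3, the muscle LIM protein of the Z-disc, differed by 1.98 and Ankrd1, a titin-binding ankyrin repeat protein, by 1.72. Rcan1, an inhibitor of calcineurin that is itself a calcineurin target gene (chr11:32539689-32550523), had 59.7 FPKM at 0 h against 332 at 4 h, a difference of 2.46 (2.02 to 2.89). The transcriptional coactivator Myocd, chosen for naming after its value was seen, differed by 1.15, and its partner Srf by 0.99, which misses the threshold. Myh7, the β-myosin of the fetal ventricle, had 272 FPKM at 0 h and 261 at 4 h (-0.06).

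SRF binds a sequence known as the CArG box. Among RefSeq promoters (assembly GRCr8, 250 bases before to 50 after the start), the box was found on either strand in 1.64% of all 27457 and in 1.24% of the 8448 that matched a measured gene. It was found in 1.92% of the 208 higher genes, 1.11% of the 180 lower genes and 1.23% of the 8060 others. Of the 16 hypertrophy genes with a promoter, a list chosen with earlier results known, 5 held it. They were Srf and Fhl2 (0.52), which were not counted as higher, and Acta1, Fhl1 and Actc1, which were. The promoters of the 3 with the largest differences are shown, with the box in capitals. They are at chr19:68784145-68784444 (minus strand), chrX:139638246-139638545 (plus strand) and chr3:121271778-121272077 (minus strand) of GRCr8, and the box begins at -94, -102 and 2, counting the start site as 0.
Acta1: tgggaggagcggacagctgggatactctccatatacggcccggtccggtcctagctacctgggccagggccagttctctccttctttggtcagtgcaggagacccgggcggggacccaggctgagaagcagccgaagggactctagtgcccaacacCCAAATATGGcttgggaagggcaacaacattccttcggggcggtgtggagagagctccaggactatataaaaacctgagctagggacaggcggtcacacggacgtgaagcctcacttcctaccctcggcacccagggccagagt
Fhl1: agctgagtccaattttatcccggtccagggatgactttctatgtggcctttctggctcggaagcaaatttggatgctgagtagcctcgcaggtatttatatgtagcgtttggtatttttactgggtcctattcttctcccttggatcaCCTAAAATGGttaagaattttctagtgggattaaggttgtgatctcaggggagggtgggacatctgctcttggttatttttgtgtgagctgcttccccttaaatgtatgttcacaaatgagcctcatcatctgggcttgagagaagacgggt
Actc1: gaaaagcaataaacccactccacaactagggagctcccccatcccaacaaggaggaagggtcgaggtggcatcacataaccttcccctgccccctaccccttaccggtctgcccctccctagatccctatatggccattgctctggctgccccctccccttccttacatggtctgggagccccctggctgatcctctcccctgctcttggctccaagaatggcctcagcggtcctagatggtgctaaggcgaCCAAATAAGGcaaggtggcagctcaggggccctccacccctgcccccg
A match describes these letters and is not evidence of binding.

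**Figure D2:**
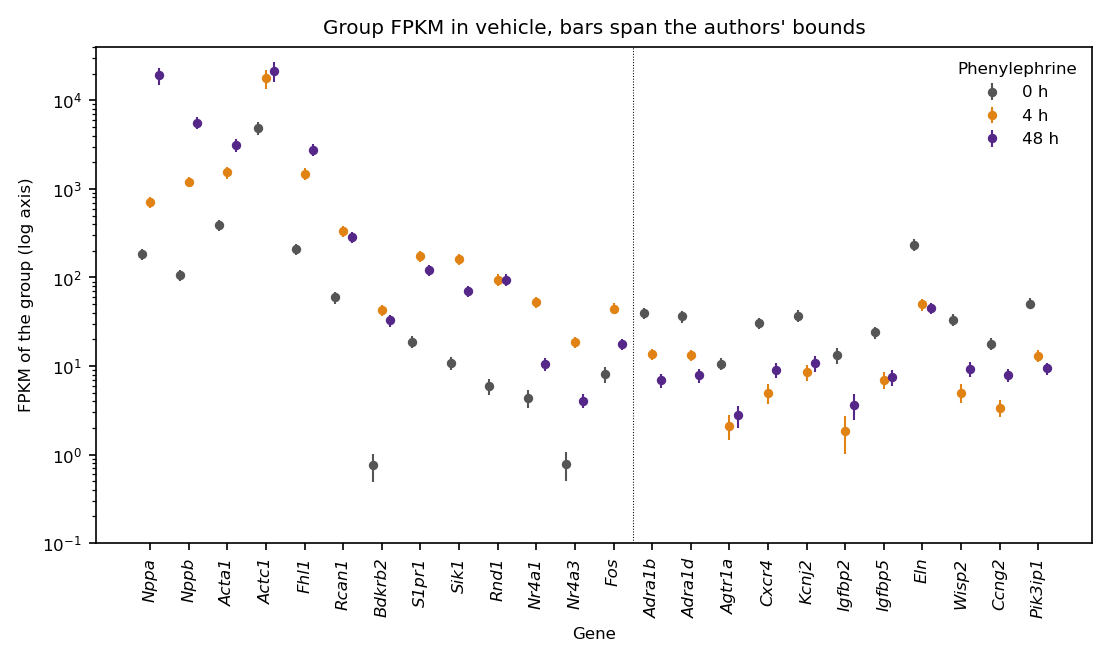
FPKM of 24 named genes in vehicle at 0 h (grey), 4 h (orange) and 48 h (purple) of PE on a log axis; bars span the authors' bounds. Left of the dotted line are 13 genes higher at 4 h, from Nppa (184 to 716 FPKM) to Fos (8.04 to 44.6). Right of it are 11 lower genes. Their 0 h and 4 h bounds do not overlap, which the rule for counting requires.

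Most early transcription factors and nuclear receptors were not counted. Among those counted, early factors were more often higher, and nuclear receptors other than the NR4A genes were lower. In the NR4A and nuclear receptor list (25 measured), the orphan receptors Nr4a3 and Nr4a1 were the 2 higher genes and 5 were lower. Nr4a3 had 0.787 FPKM (0.498 to 1.08) at 0 h against 18.7 FPKM (16.0 to 21.4) at 4 h, a 23.8-fold ratio and a difference of 3.46 (3.03 to 3.90). Nr4a1 stood at 4.36 and 52.5 FPKM, a difference of 3.32 (2.86 to 3.81). The lower receptors were the retinoid X receptors Rxra (36.1 to 15.0 FPKM, -1.22) and Rxrg (23.0 to 11.0 FPKM), the thyroid hormone receptor Thrb (4.67 to 1.47 FPKM, -1.20), Nr2f2 (-1.12) and Nr0b2, the small heterodimer partner (-1.31). In all, 20 of the 25 lay below 0, and with a pseudocount of 5 only 2 were lower.

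Of 17 AP-1 and ATF family genes, 5 were higher and 1 lower. Fos, the AP-1 subunit, had 8.04 FPKM at 0 h against 44.6 at 4 h, a difference of 2.33 (1.89 to 2.80). The stress factor Atf3 stood at 3.11 and 15.1 FPKM (1.97), the cAMP-responsive modulator Crem at 5.30 and 21.4 FPKM (1.83) and the small Maf protein Mafk at 26.1 and 81.6 FPKM (1.61). Nfil3, a repressor of clock output genes, differed by 1.16 (below 1 with equal sums), and Atf5 by -1.09. Egr1, an immediate early zinc finger factor, had 15.4 FPKM (12.4 to 18.5) at 0 h and 18.2 (15.0 to 21.4) at 4 h, and its bounds overlap. Myc likewise had 6.12 FPKM (4.99 to 7.24) and 7.20 (5.97 to 8.42). In the EGR, KLF and early zinc finger list (26 measured) 5 were higher and 0 lower: the inhibitor of DNA binding Id4 (4.45 to 35.0 FPKM, 2.73), Csrnp1 (1.35), Klf5 (1.34), Ier5 (1.19) and Ier3 (1.08). The last 2 were below 1 with equal sums.

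Of 15 measured members of the list of CREB and salt-inducible kinase genes, 5 were higher and 0 lower. Sik1, a salt-inducible kinase that restrains CREB coactivators (chr20:10670747-10680279), had 10.8 FPKM (9.06 to 12.7) at 0 h against 160 FPKM (137 to 184) at 4 h, a difference of 3.77 (3.33 to 4.20). The phosphodiesterases Pde4b (17.4 to 48.0 FPKM, 1.42) and Pde10a (2.09 to 6.78 FPKM, 1.33), which break down cyclic nucleotides, and Gem (5.91 to 17.4 FPKM, 1.41), a small GTPase that inhibits calcium channels, were also higher. Rgs2, which speeds the switching off of Gq, went from 38.6 to 95.3 FPKM (1.28), and its listed locus overlaps that of Uchl5. The full CREB motif TGACGTCA occurred on either strand in 11 of the 208 promoters of higher genes (5.29%), in 1 of the 180 of lower genes (0.556%) and in 3.39% of the 8060 of other measured genes. The share over all promoters was 1.91%. The 11 higher holders were Areg, Avpi1, Btg2, Ch25h, Epha2, Fam134b, Lamb3, Lmcd1, Plk2, Ppp1r15a and Rcan1, named after their values were seen, and the lower one was Plekhf1. Of the 5 higher genes of the CREB and salt-inducible kinase list, 4 had a promoter in the table, and 0 of these 4 held the full motif. The 3 shown are Ch25h, an oxysterol-producing enzyme with 0.993 FPKM at 0 h and 16.5 at 4 h (3.14), Rcan1 and the antiproliferative gene Btg2 (29.5 to 108 FPKM, 1.84). Their promoters follow, at chr1:241429317-241429616 (minus strand), chr11:45118187-45118486 (minus strand) and chr13:48087641-48087940 (minus strand) of GRCr8. Capitals mark the motif, at -77, -207 and -201, and in Rcan1 also the AP-1 motif TGANTCA, at -142. No promoter in the reference table matched Nr4a3, Bdkrb2 or Rnd1.
Ch25h: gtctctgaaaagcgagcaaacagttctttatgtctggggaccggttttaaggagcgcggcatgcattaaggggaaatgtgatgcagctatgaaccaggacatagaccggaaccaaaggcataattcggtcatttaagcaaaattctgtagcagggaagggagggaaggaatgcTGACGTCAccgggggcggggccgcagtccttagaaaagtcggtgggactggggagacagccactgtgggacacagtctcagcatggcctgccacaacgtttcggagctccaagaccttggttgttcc
Rcan1: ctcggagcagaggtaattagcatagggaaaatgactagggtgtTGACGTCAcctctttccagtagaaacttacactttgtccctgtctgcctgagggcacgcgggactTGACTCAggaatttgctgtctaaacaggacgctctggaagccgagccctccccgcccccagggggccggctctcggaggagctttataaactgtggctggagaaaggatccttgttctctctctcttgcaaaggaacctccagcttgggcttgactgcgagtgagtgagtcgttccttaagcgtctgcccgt
Btg2: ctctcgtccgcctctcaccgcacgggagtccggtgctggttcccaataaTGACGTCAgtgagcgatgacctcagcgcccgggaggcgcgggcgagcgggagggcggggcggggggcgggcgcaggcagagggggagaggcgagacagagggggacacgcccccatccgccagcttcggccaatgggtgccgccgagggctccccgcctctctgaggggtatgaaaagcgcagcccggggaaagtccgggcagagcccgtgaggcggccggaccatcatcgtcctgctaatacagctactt
The AP-1 motif was in 7.69% of the promoters of higher genes, 3.89% of those of lower genes, 4.80% of those of other measured genes and 7.33% of all. The EGR motif GCGTGGGCG was in 1.92%, 1.11%, 1.04% and 0.59% of these.

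Receptors differed in both directions, and 2 of the 3 that bind PE were lower. Among 25 G-protein-coupled receptors, 2 were higher and 6 lower. Bdkrb2, the bradykinin B2 receptor, had the largest difference of the genes named here. It stood at 0.759 FPKM (0.491 to 1.03) at 0 h against 42.9 FPKM (36.6 to 49.2) at 4 h, a 56.5-fold ratio and a difference of 4.64 (4.21 to 5.07). S1pr1, a sphingosine-1-phosphate receptor, had 18.9 FPKM (16.1 to 21.7) and 173 FPKM (148 to 198), a difference of 3.13 (2.72 to 3.55). Of the 3 α1-adrenergic receptors, Adra1b had 39.5 FPKM (33.9 to 45.2) at 0 h against 13.6 (11.7 to 15.6) at 4 h, a difference of -1.47 (-1.87 to -1.07). Adra1d had 36.3 FPKM (30.9 to 41.7) and 13.3 (11.3 to 15.3), a difference of -1.38 (-1.79 to -0.97). Adra1a, the α1A subtype, had 12.6 FPKM (10.2 to 15.0) and 14.3 (11.8 to 16.7), with overlapping bounds and a difference of 0.17 that was -0.02 with equal sums. At 0 h the order of the 3 was Adra1b and Adra1d, whose bounds overlap, above Adra1a, and at 4 h the bounds of all 3 overlap. The β1-adrenergic receptor Adrb1 went from 64.6 to 31.3 FPKM (-1.02) and the angiotensin receptor Agtr1a from 10.7 to 2.12 FPKM (-1.90). Cxcr4, the receptor of the chemokine CXCL12, had 30.7 FPKM (26.3 to 35.1) and 4.97 (3.74 to 6.20), a difference of -2.41 (-2.93 to -1.92). The glucagon receptor Gcgr stood at 14.1 and 3.59 FPKM. Npr3, the clearance receptor that removes natriuretic peptides, is no G-protein-coupled receptor and went from 29.5 to 6.67 FPKM (-1.99), opposite to the peptide genes.

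Genes of signal transduction downstream of receptors included several inhibitors. The counts of the lists that follow stand beside 2.75% higher and 2.32% lower of all genes. Of 18 ERK feedback genes 3 were higher and 0 lower (1 higher with a pseudocount of 5): the phosphatases Dusp2 (0.658 to 5.41 FPKM, 1.95) and Dusp8 (7.24 to 18.4 FPKM, 1.24) and Phlda1 (1.34). Of 36 small GTPase and actin regulators 3 were higher and 0 lower. Rnd1, a small GTPase that opposes RhoA (chr7:140349138-140356209), had 5.93 FPKM (4.71 to 7.15) at 0 h against 94.3 FPKM (80.2 to 108) at 4 h, a difference of 3.78 (3.32 to 4.26). The RhoA effector kinase Rock2 (53.0 to 153 FPKM, 1.51) and Cdc42ep3, an effector of CDC42 (68.2 to 282 FPKM, 2.03), were higher as well. Of 20 calcineurin, NFAT and MEF2 genes Rcan1 and Hdac5 were higher. Hdac5, a class IIa histone deacetylase that represses MEF2, stood at 45.3 and 128 FPKM (1.47). Tnfrsf12a, the receptor of the cytokine TWEAK, had 86.5 FPKM at 0 h against 709 at 4 h, an 8.20-fold ratio (3.02).

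Of 36 FOXO target and growth arrest genes, 3 were higher and 4 lower, beside 2.75% and 2.32% of all genes. Irs2, the insulin receptor substrate, had 15.2 FPKM (13.0 to 17.4) at 0 h against 89.5 (76.5 to 103) at 4 h, a difference of 2.48, and Gadd45g 52.2 and 300.5 FPKM (2.50). The lower members were cyclin G2 (Ccng2, 17.8 to 3.39 FPKM, -2.10), the PI3-kinase inhibitor Pik3ip1 (50.7 to 13.0 FPKM, -1.89), the ubiquitin ligase of muscle atrophy Fbxo32 (84.8 to 29.2 FPKM) and the arrestin-like Arrdc3 (65.1 to 25.4 FPKM, -1.32). All 8 measured insulin-like growth factor binding proteins lay below 0, and 4 were lower, with a median of -1.05. Igfbp2 went from 13.2 to 1.85 FPKM (-2.32), Igfbp5 from 23.9 to 7.01 (-1.64), Igfbp4 from 38.6 to 14.4 (-1.36) and Igfbp7, whose locus overlaps other genes, from 299 to 139 (-1.10). Igfbp2 and Igfbp5 are neighbours, 9428 bases from each other on chromosome 9.

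In the contractile apparatus, 5 of 29 sarcomere genes were higher and 2 lower (2.75% and 2.32% of all genes), with a median of 0.59. Besides the actins the higher ones were Murc, a muscle caveola protein (25.1 to 138 FPKM, 2.41), filamin C (Flnc, 125 to 352 FPKM, 1.48) and the Z-disc protein telethonin (Tcap, 29.2 to 62.7 FPKM, 1.07), which was below 1 with equal sums. The M-band protein myomesin 2 (Myom2) went from 106 to 43.3 FPKM (-1.28). The other lower member is Fbxo32, a ubiquitin ligase rather than a sarcomere protein, which is also among the FOXO targets above. Of 24 calcium handling genes the sodium-calcium exchanger Slc8a1 (209 to 430 FPKM, 1.03) and the calcium channel subunit Cacnb2 (44.9 to 100.2 FPKM, 1.14) were higher, but neither with equal sums, where the median of the list also turned from 0.15 to -0.05. Atp2a2, the calcium pump of the sarcoplasmic reticulum, had 2359 FPKM (1885 to 2834) and 2876 (2221 to 3530), with overlapping bounds.

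Of 24 measured ion channel genes, 4 were lower and 1 higher, with a median of -0.52. Kcnj2, the main channel of the inward rectifier current that holds the resting potential, had 37.0 FPKM (31.4 to 42.6) at 0 h against 8.50 (6.70 to 10.3) at 4 h, a 4.35-fold lower level. Kcnj3, a subunit of the muscarinic potassium channel, went from 14.2 to 5.82 FPKM (-1.16). The accessory subunit Kcne4 went from 13.7 to 2.09 FPKM (-2.25), while Kcne1, the partner of the slow delayed rectifier, went from 6.90 to 15.6 FPKM (1.07; below 1 with equal sums). Gabrb2, a GABA receptor subunit, had 9.96 FPKM (8.0 to 11.9) and 0.870 (0.357 to 1.38), an 11.5-fold lower level at 4 h and a difference of -2.55.

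**Figure D3:**
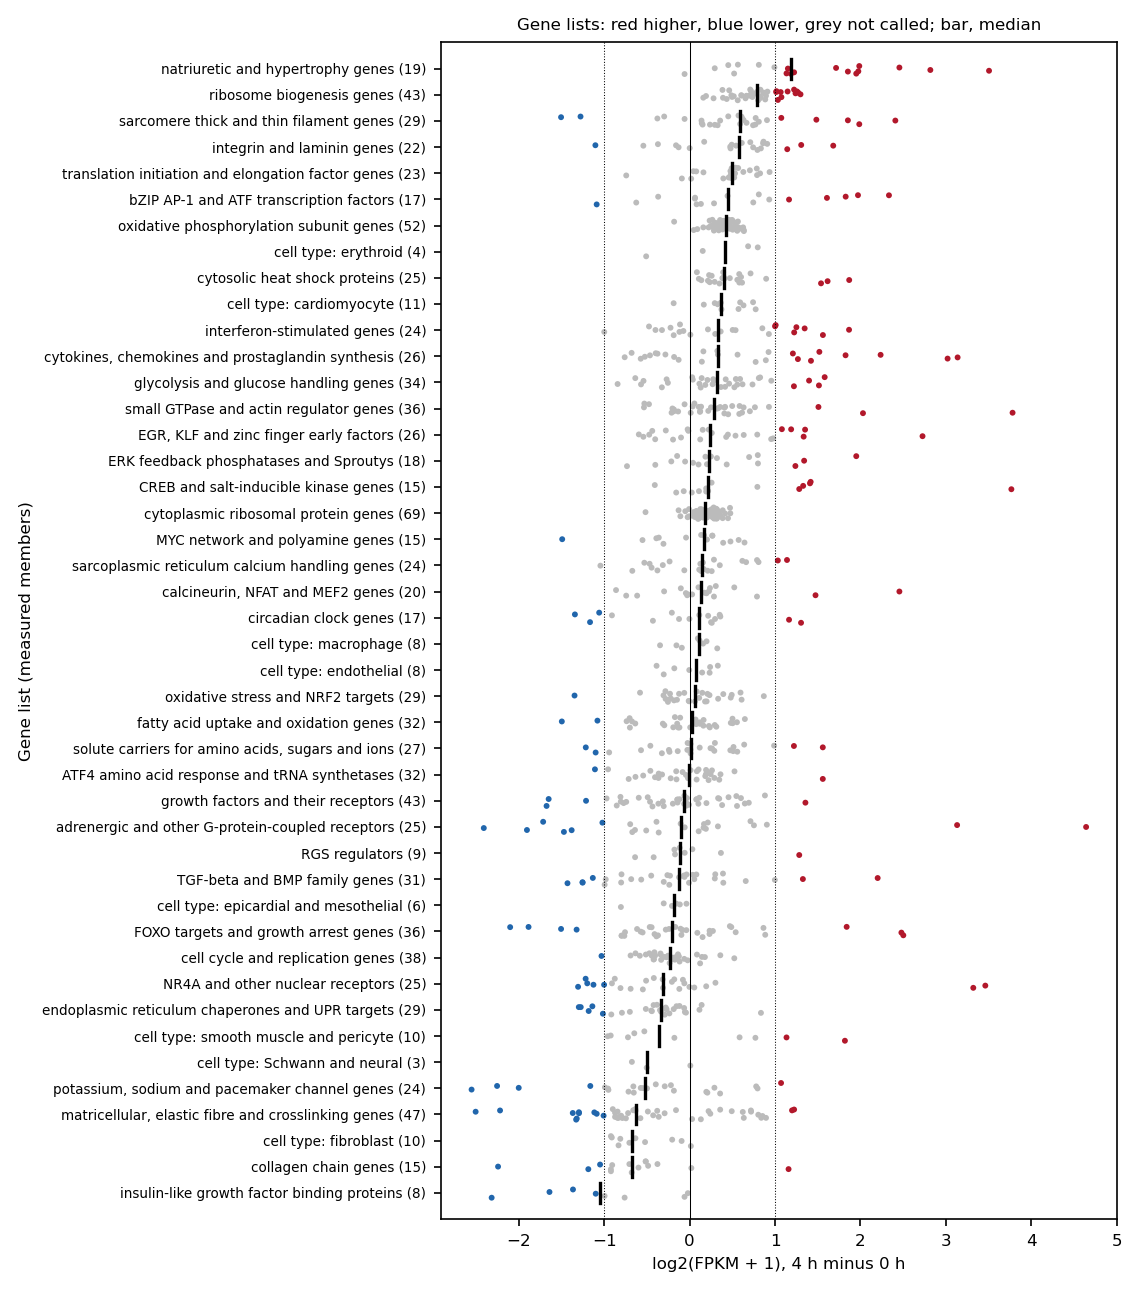
Differences of log2(FPKM + 1) of the measured members of the gene lists shown, 1 point per gene, with the list's median as a black bar and dotted lines at -1 and 1. The hypertrophy list has the highest median (1.19) and the insulin-like growth factor binding proteins the lowest (-1.05). The lists were chosen with earlier results of these data known. Red points are higher, blue lower and grey not counted.

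All 43 measured ribosome biogenesis genes lay above 0, 11 were higher and 0 lower, and the median was 0.79 (0.60 with equal sums, where 5 were higher; 6 with a pseudocount of 5). The nucleolar GTPase Gnl3 had 27.4 FPKM (23.4 to 31.4) at 0 h against 68.8 (58.6 to 79.0) at 4 h, a difference of 1.30 (0.88 to 1.71). Nolc1 (1.27), Gtpbp4 (1.26), Nop58, a core protein of box C/D ribonucleoproteins (1.24), Wdr43 (1.22), the helicase Ddx21 (1.15), Rrp9 (1.08) and the RNA methyltransferase Nop2 (1.07) followed. Of the ribosomal proteins themselves, 0 of 69 cytoplasmic genes were counted, with differences from -0.52 to 0.48 and a median of 0.18 that was -0.01 with equal sums. Of 23 translation factor genes 0 were counted and 21 lay above 0 (median 0.49). Of 15 genes of the MYC network 0 were higher and 1 was lower, beside 2.75% and 2.32% of all genes. The lower one was Mxd4, a MAX partner that opposes MYC (45.0 to 15.4 FPKM, -1.49).

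The E-box CACGTG, which MYC and other basic helix-loop-helix factors bind, was in 13 of the 40 ribosome biogenesis promoters (32.5%), in 9.58% of the promoters of all measured genes, in 10.1% of those of higher genes and in 6.65% of all 27457. This motif was added after the values were seen, and reads the same on both strands. The E-box was not the only motif more frequent in this list. The short CREB motif TGACG, chosen at the outset, was in 21 of the 40 promoters (52.5%). It was in 33.3% of the promoters of all measured genes, 36.5% of those of higher genes and 21.7% of those of lower genes. Its counted holders in the list were Gnl3, Nolc1, Nop58, Ddx21, Gtpbp4 and Nip7, and its other holders there were not counted. Gnl3 and Nop2 are shown as the 2 counted genes that hold the E-box. Their promoters are at chr16:6219733-6220032 (minus strand) and chr4:159618716-159619015 (plus strand) of GRCr8, with the E-box in capitals at -25 and 38.
Gnl3: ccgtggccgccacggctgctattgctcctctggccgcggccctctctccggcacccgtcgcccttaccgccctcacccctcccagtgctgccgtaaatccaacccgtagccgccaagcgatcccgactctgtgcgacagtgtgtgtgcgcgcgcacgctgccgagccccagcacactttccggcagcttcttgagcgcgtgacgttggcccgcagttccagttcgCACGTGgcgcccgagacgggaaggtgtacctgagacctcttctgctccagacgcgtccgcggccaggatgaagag
Nop2: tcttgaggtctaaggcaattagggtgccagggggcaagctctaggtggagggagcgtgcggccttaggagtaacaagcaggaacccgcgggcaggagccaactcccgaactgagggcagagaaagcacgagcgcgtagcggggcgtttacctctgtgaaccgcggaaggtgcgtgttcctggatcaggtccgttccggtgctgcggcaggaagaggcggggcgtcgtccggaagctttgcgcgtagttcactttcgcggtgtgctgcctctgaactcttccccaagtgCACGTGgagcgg
The other 11 promoters with the E-box belonged to genes that were not counted, such as Fbl (0.49) and Dkc1 (0.19).

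Chaperones of the cytosol and of the endoplasmic reticulum lay on opposite sides of 0. All 25 measured cytosolic heat shock genes were above 0 (median 0.40, or 0.20 with equal sums) and 3 were higher: Dnajb5 (15.8 to 60.5 FPKM, 1.87), Hspb6 (141 to 434 FPKM, 1.62) and Hspb7 (431 to 1253 FPKM, 1.54), the last 2 small heat shock proteins of muscle. Of 29 endoplasmic reticulum chaperone and unfolded protein response genes, 26 were below 0, 5 were lower (2 with a pseudocount of 5) and 0 higher. Herpud1, which serves degradation of misfolded proteins, had 194 FPKM (165 to 222) at 0 h against 79.5 (68.2 to 90.8) at 4 h, a difference of -1.27. The cochaperone Dnajb9 went from 83.0 to 33.2 FPKM (-1.30), Ero1b, an oxidase that forms disulphide bonds, from 6.72 to 2.40 (-1.18), Sdf2l1 from 35.1 to 15.4 (-1.14) and Derl3 from 11.4 to 5.13 (-1.01). In the ATF4 amino acid list (32 measured) 1 was higher and 1 lower, near the shares of all genes (2.75% and 2.32%). They were the arginine transporter Slc7a1 (14.8 to 45.6 FPKM, 1.56) and the pseudokinase Trib3 (34.5 to 15.5 FPKM, -1.11).

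Of 47 matricellular, elastic fibre and crosslinking genes, 10 were lower and 2 higher, with 31 below 0 and a median of -0.63. Elastin (Eln, chr12:24978478-25021864) had 235 FPKM (201 to 269) at 0 h against 49.7 (42.3 to 57.0) at 4 h, a 4.73-fold lower level and a difference of -2.22 (-2.64 to -1.80). The elastic fibre proteins Fbln5 (20.1 to 7.61 FPKM, -1.30) and Fbln1 (15.7 to 5.68 FPKM, -1.32) and the crosslinking enzyme Loxl1 (92.2 to 37.0 FPKM, -1.29) were lower with it. Among the CCN family, Wisp2 went from 33.1 to 5.01 FPKM (-2.50) and Nov from 123 to 47.1 (-1.37), while Ctgf, a target of SRF and YAP signalling, went from 474 to 1109 (1.22; 0.97 with quantile normalization). With equal sums or quantile normalization 15 members were lower, and with a pseudocount of 5 only 6. The protease Adamts5 (-1.33) was among those that then missed the threshold. Of 15 measured collagen chains, 13 were below 0, 3 were lower and 1 was higher. Col4a3 of the basement membrane went from 24.5 to 4.39 FPKM (-2.24), Col14a1 from 72.3 to 31.2 (-1.19) and Col11a1 from 7.35 to 3.04 (-1.05), and Col18a1, the precursor of endostatin, from 55.7 to 126 (1.16; below 1 with equal sums). Col1a2 was listed at 0 in both groups and was not used. The fibroblast markers, 9 of 10 below 0 with a summed level of 1791 FPKM at 0 h and 1086 at 4 h, lay on the same side as the matrix genes, and their part in this result was not tested.

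Integrins and laminins had a median of 0.58, with 3 higher and 1 lower of 22. Itgb8, which activates latent TGF-β, had 8.57 and 29.7 FPKM (1.68), the fibronectin receptor Itga5 32.4 and 81.6 (1.31) and Lamb3 21.6 and 49.0 (1.14; below 1 with equal sums), and the collagen receptor Itga11 6.59 and 2.54 (-1.10). In the TGF-β and BMP family (31 measured) 2 were higher and 4 lower, beside 2.75% and 2.32% of all genes. The ligands Bmp7 (11.7 to 57.2 FPKM, 2.20) and Tgfb2 (42.8 to 109 FPKM, 1.33) were higher. The ligands Gdf6 (-1.43), Bmp4 (15.3 to 5.86 FPKM, -1.25) and Bmp6 (13.2 to 4.94 FPKM, -1.25) and the receptor Tgfbr2 (55.4 to 24.7 FPKM, -1.13) were lower. Of 43 growth factor and receptor genes, 1 was higher and 3 were lower, beside 2.75% and 2.32% of all genes. The higher count is thus near the share of all genes. The EGF family ligand Areg was higher (0.663 to 3.26 FPKM, 1.36). Fgf9, Fgf7 and Angpt1 were lower (-1.67, -1.65 and -1.21), and the Fgf7 locus overlaps other genes. With a pseudocount of 5 none of these 4 was counted, and in the TGF-β and BMP family 1 was lower. Sfrp1, a secreted inhibitor of Wnt ligands, had 12.9 FPKM at 0 h and 95.6 at 4 h (2.79).

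Metabolic lists differed in how many genes were counted, beside 2.75% higher and 2.32% lower of all genes. Of 34 glycolysis and glucose genes, 4 were higher and 0 lower (with equal sums, 1 lower). The monocarboxylate carriers Slc16a3 (17.7 to 55.0 FPKM, 1.58) and Slc16a1 (191 to 446 FPKM, 1.22), hexokinase 2 (Hk2, 16.3 to 44.6 FPKM, 1.40) and Gfpt2 of the hexosamine pathway (4.66 to 15.2 FPKM, 1.51) were higher. Gapdh, often used as a reference, stood at 2257 FPKM at 0 h and 3469 at 4 h (0.62). Of 32 fatty acid genes 0 were higher and 2 lower: Cpt1a, which admits fatty acids into mitochondria (44.2 to 20.4 FPKM, -1.08), and Pdk4, the kinase that shuts off pyruvate oxidation (12.2 to 3.69 FPKM), neither with a pseudocount of 5. The median of that list was 0.03 and turned to -0.16 with equal sums. None of 52 oxidative phosphorylation subunits was counted, while 51 of 52 lay above 0 with a median of 0.43 (0.23 with equal sums and 0.11 with quantile normalization). Fdx1, a mitochondrial electron carrier, went from 38.1 to 306 FPKM (2.98).

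Of 26 inflammatory genes 8 were higher and 0 lower. The chemokines Ccl2 (23.6 to 69.5 FPKM, 1.52) and Ccl7 (4.88 to 14.8 FPKM, 1.42) are neighbours on chromosome 10, 9219 bases from each other. Cx3cl1 (1.27) and Cxcl1 (1.21), the oncostatin M receptor Osmr (9.34 to 35.6 FPKM, 1.83) and the nuclear IκB protein Nfkbiz (3.40 to 19.7 FPKM, 2.24) were higher with Tnfrsf12a and Ch25h. Of 24 interferon-stimulated genes 7 were higher and 0 lower (5 and 1 with equal sums, 3 and 0 with a pseudocount of 5). The antiviral genes Oas1a (1.08 to 6.61 FPKM, 1.87), Isg15 (8.95 to 28.4 FPKM, 1.56), Usp18 (1.35), Ifi27 (1.25) and Ifit1 (1.22) were among them. The macrophage markers stood at 45.3 FPKM at 0 h and 47.3 at 4 h in sum, with none of 8 past the threshold.

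The circadian clock list (17 measured) had 2 higher and 3 lower genes (1 and 1 with a pseudocount of 5). Arntl (BMAL1), an activator of the clock, had 7.50 FPKM (6.33 to 8.68) at 0 h against 20.01 (17.1 to 22.9) at 4 h, a difference of 1.30 (0.90 to 1.71). The output factors Dbp (26.9 to 10.0 FPKM, -1.34) and Tef (35.3 to 15.2 FPKM, -1.17) and Per3 (17.9 to 8.08 FPKM, -1.06) were lower. Of the REV-ERB repressors, Nr1d2 had 39.2 and 20.4 FPKM (-0.91), short of the threshold as deposited and past it with equal sums. Nr1d1, whose locus overlaps Thra, had 15.3 and 15.2 FPKM with wide bounds (8.81 to 21.7 and 9.91 to 20.6). Of 38 cell cycle and replication genes 0 were higher and 1, E2f1, was lower (5.94 to 2.39 FPKM, -1.03). E2f1 was not counted with a pseudocount of 5. The lower count is near the share of all genes, 2.32%. Below 0 lay 32 of the 38.

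Some of the largest differences belong to none of these lists. Il12a, a subunit of interleukin 12 and related cytokines, went from 2.25 to 19.6 FPKM (2.66), the serine protease Prss23 from 61.7 to 357 (2.51) and the galactosyltransferase B3galt2, whose locus overlaps Cdc73, from 9.88 to 57.5 (2.43). On the lower side were the transcription factors Tox (11.7 to 2.06 FPKM, -2.05) and Osr1 (12.6 to 2.31 FPKM, -2.04), the ankyrin repeat protein Asb14 (-1.99), Tmem86a (-1.86) and the Nogo receptor relative Rtn4rl1 (-1.70). The genes that follow are list members not named above. The iron exporter Slc40a1 of the solute carrier list (-1.21) and Osgin1 of the oxidative stress list (-1.35) were lower, neither with a pseudocount of 5. The transferrin receptor Tfrc, which takes up iron, was higher (58.2 to 160 FPKM, 1.44). It was the 1 higher gene of 13 measured in the housekeeping list. Ifi44 of the interferon-stimulated list was also higher (1.01).

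The 48 h group shares the 0 h group as its reference, so only levels are set side by side. Nr4a3 had 0.787, 18.7 and 4.08 FPKM at 0, 4 and 48 h, Nr4a1 4.36, 52.5 and 10.4, Ch25h 0.993, 16.5 and 2.67 and Fdx1 38.1, 306 and 45.8. These 4 stood nearer to their 0 h level at 48 h. Rnd1 had 5.93, 94.3 and 94.4 FPKM and Bdkrb2 0.759, 42.9 and 32.7, close to their 4 h levels. Nppb reached 5588 FPKM and Nppa 19205 at 48 h, above the 4 h levels of 1208 and 716. Among lower genes, Gabrb2 (9.96, 0.870 and 0.428 FPKM), Eln (235, 49.7 and 44.7) and Adra1b (39.5, 13.6 and 6.87) were at or under the 4 h level at 48 h. Fgf9 (7.56, 1.68 and 6.94) and Cilp, a cartilage matrix protein (13.4, 2.47 and 9.91), were near the 0 h level again.

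**Figure D4:**
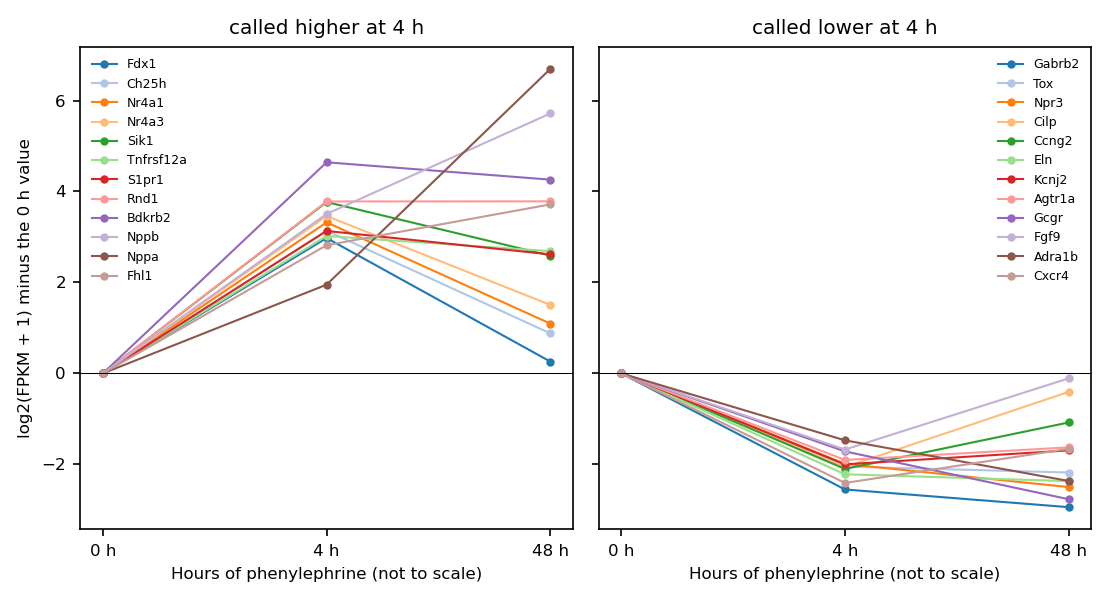
Difference of log2(FPKM + 1) from 0 h at 4 h and 48 h of PE in vehicle, with 12 genes higher at 4 h on the left and 12 lower on the right; hours are not to scale and both differences share the 0 h group. Fdx1, Ch25h, Nr4a1 and Nr4a3 come back towards 0 at 48 h, while Nppa and Nppb go on upwards.

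The same step, 0 h to 4 h of PE, was also taken in cells given SR9009 in place of vehicle, with libraries of its own. In that arm 190 of 10424 measured genes were higher (1.82%) and 276 lower (2.65%). Of 281 genes higher in vehicle and measured in both arms, 149 were also higher with SR9009, which is 53.0% of the vehicle genes and 78.8% of the 189 SR9009 genes. Of 240 lower genes, 141 were shared, 58.8% of the vehicle genes and 51.5% of the 274 SR9009 genes. None was counted in opposite directions. The sign was the same in 277 of the 281 and 239 of the 240, against 80.5% of all 10410 genes. Across all genes, which are not independent replicates, the differences had a Pearson r of 0.825. The genes higher in vehicle had a median difference of 1.35 there and 1.05 with SR9009, and those lower in vehicle -1.20 and -1.12; they were chosen for being past the threshold in vehicle, so nothing is read from which arm has the larger median. Bdkrb2 differed by 4.64 in vehicle and 3.82 with SR9009, Sik1 by 3.77 and 2.91, Cxcr4 by -2.41 and -2.60 and Eln by -2.22 and -2.56. Atf3 (1.97 and 0.40), Slc7a1 (1.56 and 0.23), Tgfb2 (1.33 and 0.16), Ctgf (1.22 and 0.09) and Dusp8 (1.24 and 0.17) were higher in vehicle and not counted with SR9009. No test of the difference between the arms was possible for any of them.

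**Figure D5:**
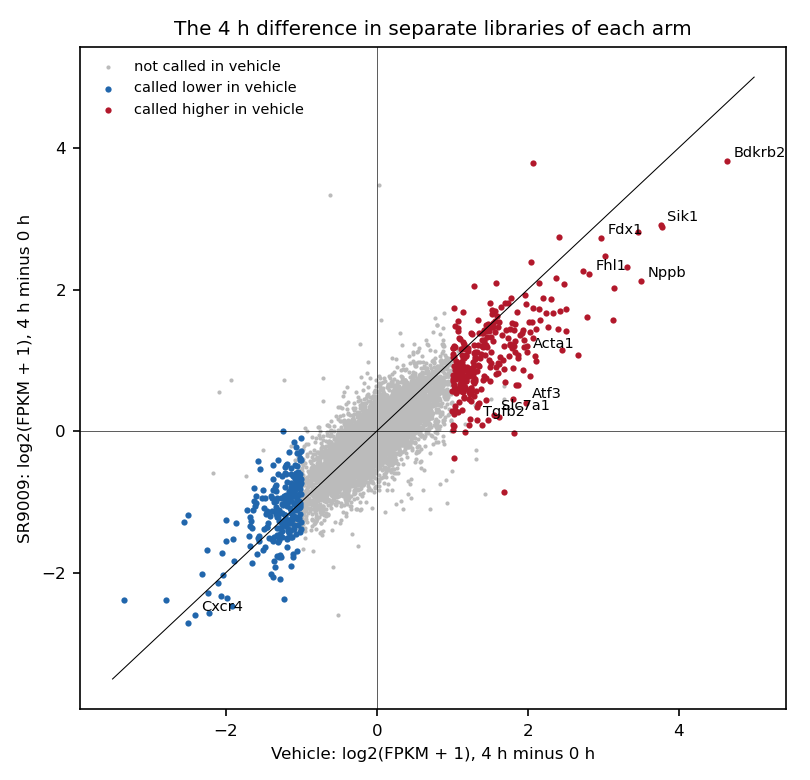
Each point is a gene measured in both arms, with its 4 h minus 0 h difference of log2(FPKM + 1) in vehicle on the x axis and with SR9009 on the y axis; the line marks equality. Genes higher (red) or lower (blue) in vehicle keep their sign with SR9009 in nearly all cases (277 of 281 and 239 of 240), and Atf3, Slc7a1 and Tgfb2 lie near 0 on the y axis.

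In their position on rn6, genes that overlapped no other locus were compared by span. The median span was 19471 bases for 265 higher genes, 22430 for 224 lower genes and 20535 for the rest. Spans over 100 kb were held by 9.81% of the higher, 18.3% of the lower and 10.5% of the other genes. Of 10412 pairs of neighbouring measured genes, 25 were both higher (0.240%), 7 both lower (0.0672%) and 15 in opposite directions (0.144%), with gaps of up to 1907018 bases. Among pairs at most 100 kb from each other with no overlap, these were 15, 3 and 4. The number of all neighbouring pairs that close was not counted, so no share stands beside these counts and no clustering is read from them. Besides the pairs above, Kcne1 and Rcan1 lie 31268 bases from each other on chromosome 11, and Murc and Tmeff1 480 bases on chromosome 5.

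The table also lists short microRNA hairpins. Of 61 measured, 12 were higher and 2 lower. Another 44 had a value at 0 h and were listed at 0 at 4 h, and 21 the other way, so the balance among the measured hairpins does not describe all of them. Mir21, a microRNA induced in the stressed heart, was listed at 18.4 FPKM at 0 h, 127 at 4 h and 14.7 at 48 h, and with SR9009 at 33.0 and, at 4 h, 0. Mir628, listed at 178 and 25.9 FPKM, has a listed locus that overlaps Ccpg1 and Pigb. The Mir21 hairpin spans 92 bases, and the number of fragments behind its values is unknown.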

How the data were processed

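Per the labels' protocols, libraries were made with a stranded Illumina TruSeq mRNA kit. The authors deposited 1 table of FPKM, with 1 value, bounds and a status per gene and group of 3 libraries. Per the submitters' processing notes, which give no versions, the tools were FastQC, Trim Galore, TopHat and Cuffdiff and the build rn6. How libraries were scaled to each other, and their depth, is not given in the sources used here.

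Differences of log2(FPKM + 1) were computed with Python 3.11.15, pandas 2.3.3 and numpy 2.4.6; the rule for higher and lower, which is no test, was tested on simulated data. A gene whose value lies outside its own bounds was not counted (16 measured genes). Named are the 20 largest differences per direction with at least 5 FPKM in a compared group and no placeholder symbol (names that begin with LOC, RGD or Fam and a number were taken as such, and so was Rn5s), up to 8 counted members of each list, a fixed set of reference genes, and the highest and lowest marker per cell type; other names were chosen after their values were seen. The members and the 46 gene lists were chosen with earlier results of these data known. Loci are the table's. Promoters are RefSeq, GRCr8, matched by symbol. The E-box was searched in addition to the motifs chosen at the outset. The results of the sterol and fatty acid synthesis list, and of another gene that the rule selects, are not reported here.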

Additional observations from a re-analysis of the deposited data

How the results depend on the processing

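The count of 529 genes depended mostly on how low levels and size were treated. A pseudocount of 0.1 gave 383 lower genes, and one of 5 gave 266 genes in all (191 higher, 75 lower) and 218 with SR9009 (466 as reported). Equal sums gave 409 lower genes. A size threshold of log2 of 1.5 gave 1768 genes (849 higher, 919 lower), and one of 2 gave 57 (42 and 15). No named gene that was counted changed direction under the alternatives tried. Of 162 named genes that were counted, 105 stayed so under each of the 7 alternatives of pseudocount, filter and scaling in which they were measured. A gene that an alternative left out was not scored there and can be among the 105. Gabrb2, for example, was left out when a mean of at least 5 FPKM was asked for. The pseudocount of 5 took 45 from the count (among them Adamts5, Adrb1, Angpt1, Areg, Bmp4, Bmp6, Ccl7, Col11a1, Cpt1a, Cxcl1, Derl3, Dusp2, Dusp8, E2f1, Ero1b, Fbln1, Fbln5, Fgf7, Fgf9, Gdf6, Ifi44, Ifit1, Irf7, Itga11, Kcne1, Kcnj3, Klf5, Nfil3, Nop2, Nr2f2, Oas1a, Osgin1, Pde10a, Pdk4, Per3, Rrp9, Rxrg, Sdf2l1, Slc40a1, Tcap, Tef, Thrb and Trib3). Equal sums took 17 (among them Acta2, Cacnb2, Col18a1, Ddx21, Ier3, Ier5, Ifi44, Irf7, Kcne1, Lamb3, Nfil3, Nop2, Rrp9, Slc8a1 and Tcap), quantile normalization 18 (among them Acta2, Cacnb2, Col11a1, Col18a1, Ctgf, Derl3, E2f1, Ier3, Ifi27, Irf7, Itga11, Per3, Rxrg, Slc16a1, Slc8a1 and Tcap) and centring on the median 2 (Derl3 and Rxrg). No paired analysis was possible because the table holds 1 value per group and no value per replicate, which also prevents leaving out a replicate. Bounds lay a median of 14.9% from the value for genes of at least 5 FPKM, and the variation between libraries beyond them is unknown.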
